A study of Caenorhabditis elegans with 16 samples.

Results

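Knockdown of atp-2 was compared here with the control libraries that resembled it most, rather than with the controls of the same hour. RNA was taken from whole Caenorhabditis elegans of strain N2, and every group shares this wild-type genotype. The food was HT115, a strain of Escherichia coli suited to RNA interference by feeding, and the series used the knockdown to look for neuronal genes in learned aversion and memory. In the atp-2 RNAi groups the bacteria made double-stranded RNA against atp-2, and in the control groups they carried the empty vector L4440. The compared libraries are 4 of atp-2 RNAi, replicates 2 and 3 at 0 hr and replicates 2 and 3 at 20 hr, against 1 control library of 24 hr and 1 of 36 hr, which makes 6 of the 16 samples in the series. The other samples are 1 atp-2 RNAi library each of 24 hr, 36 hr and 54 hr, 3 control libraries each of 0 hr and 20 hr, and 1 control library of 48 hr. No label gives the starting point of the hours, the age of the worms or whether replicates were separate cultures.

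The product of atp-2 is the beta subunit of the ATP synthase in mitochondria, and it holds the catalytic sites where the proton gradient drives ATP formation. Worms that lose the function of the respiratory chain or the synthase early in life are known to grow slowly and can arrest as larvae, and they switch on mitochondrial chaperones, detoxification enzymes and defence genes. Controls of the same hour may therefore differ from knockdown worms in stage as well as in treatment, and the genes that stand apart from the controls of closest profile are described here.

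The 24 hr and 36 hr controls were picked because their profiles lay closest, which is itself a measured property. On the log2(TPM + 1) scale, where TPM is a gene's transcripts per 1000000 transcripts of the library, the 4 atp-2 RNAi libraries correlated with the 24 hr control at 0.865 to 0.912 and with the 36 hr control at 0.898 to 0.926, over 13162 genes. The values were 0.841 to 0.881 with the 48 hr control, 0.615 to 0.752 with the 0 hr controls and 0.548 to 0.624 with the 20 hr controls. These correlations run across genes, which are not independent replicates. Replicates of atp-2 RNAi correlated at 0.975 and 0.982, and both nearest controls with each other at 0.966.

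A gene was counted when all 4 atp-2 RNAi libraries lay above both controls, or all 4 below, among the 13162 genes that averaged 1 TPM or more across these 6 libraries. Just inside that limit was hop-1 with a mean of 1.00025 TPM, and just outside it F55A3.7 with 0.99914 TPM. Counted as higher were 4513 genes, which is 34.3% of those tested, and as lower 1662 genes, or 12.6%. With the medians of the libraries made equal, 3019 genes were higher and 3666 lower, and quantile normalization gave 2954 and 3614. The excess of higher genes thus depended on the scale, with a median difference over all tested genes of 0.19 (log2, atp-2 RNAi minus control), and list medians below are to be read against that value. Of the tested genes, 991 averaged under 1 TPM over both controls and passed the filter through the atp-2 RNAi libraries, 778 of them counted as higher, and 138 passed through the controls in the same way. At least 2-fold apart on the log2(TPM + 1) scale were 1828 of the higher and 444 of the lower genes, and at least 8-fold apart 144 and 7. No test was made, because the values come from separately made tables, each control hour is 1 library, and an exact two-sided permutation test of 4 against 2 libraries cannot go below 0.133. The controls themselves differed: 417 genes were at least 2-fold higher and 926 at least 2-fold lower at 36 hr than at 24 hr.

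A stricter count asked that the 4 libraries lie outside all 9 controls of any hour. Above all 9 were 2126 genes, or 16.15%, and below all 9 were 443 genes, or 3.366%. Treatment and library set cannot be told apart in the comparison with the nearest controls, since the 0 hr and 20 hr libraries are named in one style in the tables and the 24 hr to 54 hr libraries in another. A count that crosses both sets, chosen after the values were seen, therefore took all 7 atp-2 RNAi libraries against all 9 controls. It found 944 genes above, or 7.17%, and 160 below, or 1.22%.

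Depth is unknown, because TPM keep no totals, and 12155 to 13565 genes per library lay above 1 TPM in the 6 libraries. Whole worms were sampled, so fewer cells of a type and less RNA per cell cannot be told apart. All 5 markers of body wall muscle, all 4 of pharynx, all 6 of intestine, all 6 of neurons and all 5 of epidermis were above 1 TPM in each of the 6 libraries. The 6 germline markers summed to 45.1 to 156 TPM in the 4 atp-2 RNAi libraries, against 25.7 TPM in the 24 hr and 100.4 TPM in the 36 hr control. The 6 yolk genes summed to 0.670 to 15.3 TPM in atp-2 RNAi, against 0.629 and 0.860 TPM in both controls, and vit-5 was at 0 in both 0 hr atp-2 RNAi libraries. Germline, egg and yolk transcripts were thus scarce on both sides of the comparison, while the yolk gene vit-2 had 1498 to 4594 TPM in the 0 hr and 20 hr controls.

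The target transcript lay below all 9 controls in each of the 7 knockdown libraries. The gene atp-2 (WBGene00000229, chromosome III, 5228417 to 5230536, plus strand, in the coordinates of the deposited tables) had 110.2 and 136.4 TPM in the 0 hr and 197.1 and 171.8 TPM in the 20 hr atp-2 RNAi libraries, against 2225 TPM in the 24 hr and 2578 TPM in the 36 hr control. The 4 values and the 2 values do not overlap, and the difference was -3.99, 0.0631 times the control level, where this and later differences and folds are on the log2(TPM + 1) scale. The atp-2 RNAi libraries of 24 hr, 36 hr and 54 hr held 1043, 735.5 and 431.4 TPM, so the target was lowest in the 0 hr and 20 hr libraries. Within the tables of the same hour the transcript fell by 4.01 (SE 0.138) at 0 hr and by 3.21 (SE 0.170) at 20 hr, with limma adjusted p of 4.69e-07 and 2.11e-06.

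Most other nuclear genes of the ATP synthase stayed close to the nearest controls, which the choice of controls by closest profile favours. Of 15 tested, with atp-2 included, 0 were higher and 4 lower, with a median of -0.11. Besides atp-2 the lower ones were asg-1 (subunit g), asb-1 (a subunit b copy known for the germline) and atp-1 (the alpha subunit), with differences of -0.69, -0.56 and -0.27. The partner of atp-2 in the catalytic hexamer, atp-1, had 2067, 2288, 2217 and 1970 TPM in atp-2 RNAi, against 2442 and 2704 TPM in the controls. Of the 15 genes, with atp-2 included, 3 lay below all 9 controls, and 2 did so with all 7 atp-2 RNAi libraries. Against controls of the same hour 5 rose and 4 fell at 0 hr, and 11 rose and 3 fell at 20 hr (limma). Nuclear genes of the electron transport chain gave 4 higher and 5 lower of 34, with a median of 0.03, which became -0.22 after the median shift.

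**Figure D1:**
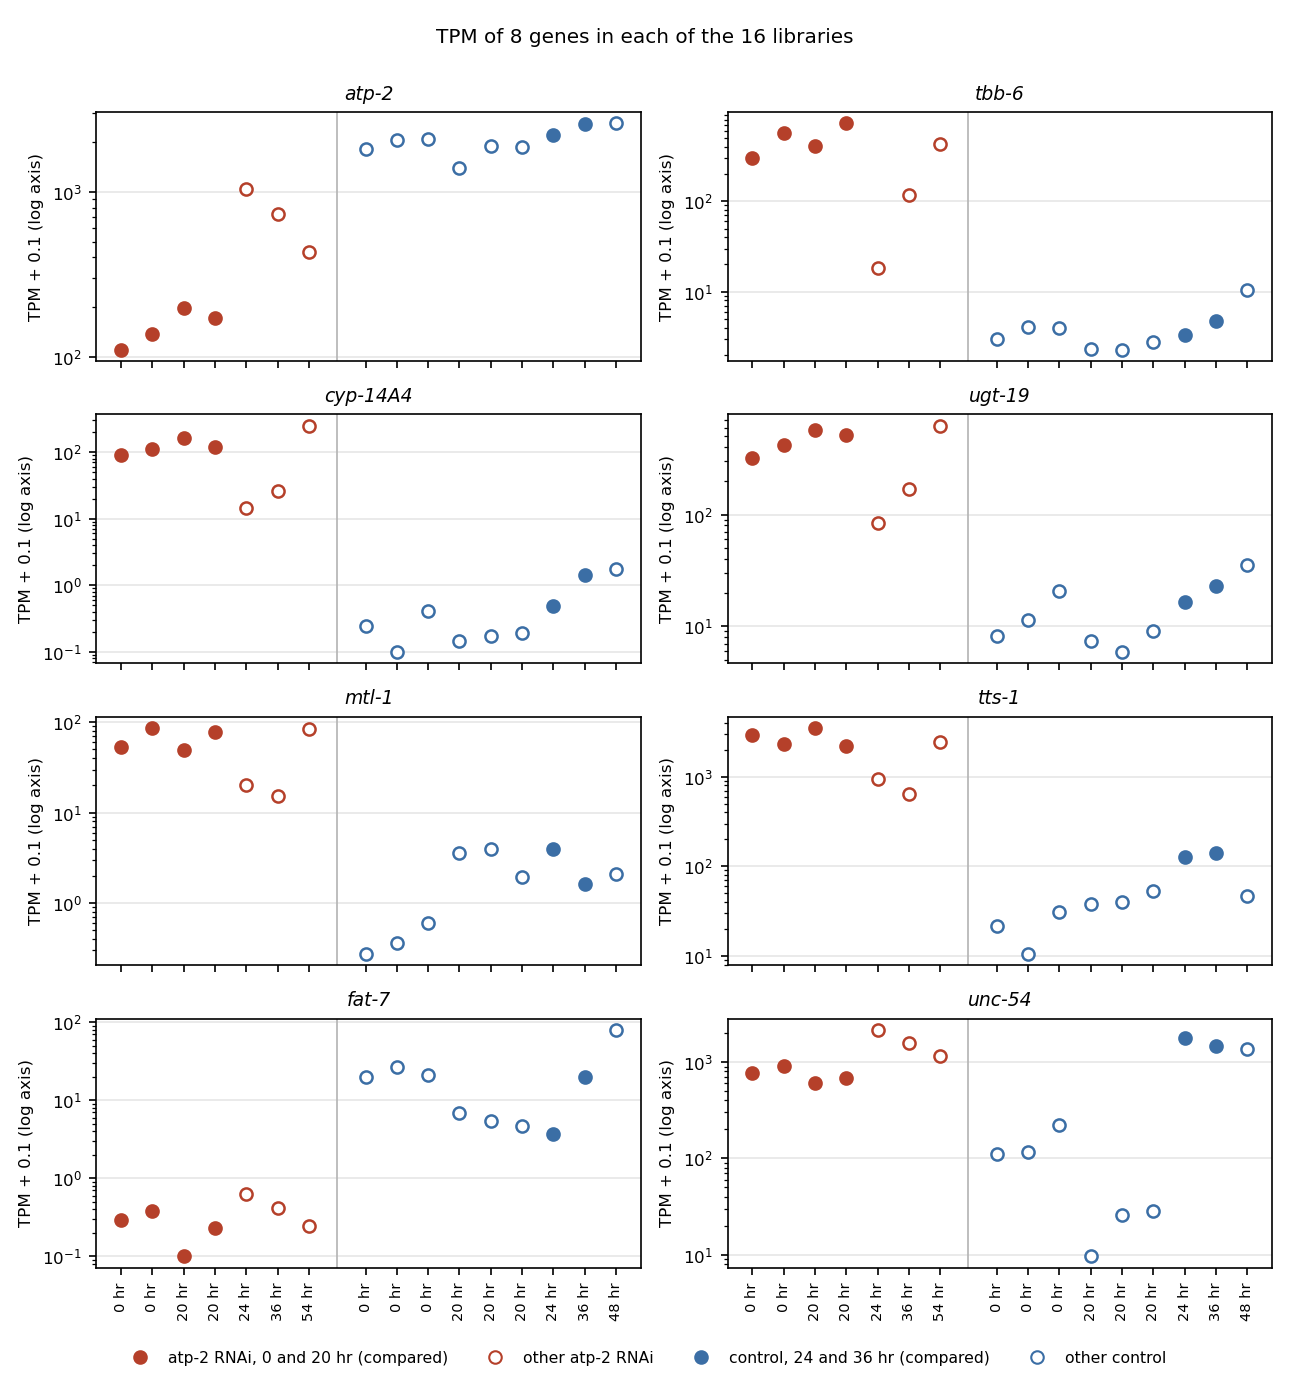
TPM + 0.1 of 8 genes on log axes in each of the 16 libraries, with atp-2 RNAi in red on the left, controls in blue on the right, and the hour of each label below. Filled points are the 4 atp-2 RNAi and 2 control libraries compared. For atp-2 and fat-7 all red points lie below all blue ones, and for tbb-6, cyp-14A4, ugt-19, mtl-1 and tts-1 all red points lie above all blue ones. For unc-54 the filled red points, 609.7 to 903.3 TPM, lie below the filled blue ones, 1466 and 1761 TPM, while the open red ones lie between 1163 and 2154 TPM.

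All 12 protein-coding genes of the mitochondrial genome were higher than in both nearest controls, and above all 9 controls, with a median difference of 3.64. They encode core subunits of complexes I, III and IV and subunit 6 of the ATP synthase, and are read from one strand of a circular genome. The complex IV gene ctc-3 had 8369, 8410, 8204 and 8190 TPM in atp-2 RNAi, against 855.1 and 868.3 TPM in the controls. Between ctc-1, with the smallest difference of 1.78, and nduo-3, with 9.40, the sizes spread over a wide range. Of the 12 genes 3 (nduo-3, nduo-6 and ndfl-4) averaged under 1 TPM over both controls and passed the filter through the atp-2 RNAi libraries. The other 9 were all counted as higher too. In the complex I gene nduo-3 the 4 libraries held 843.8, 1063, 719.8 and 808.8 TPM, against 0.398 and 0.130 TPM in the 24 hr and 36 hr controls.

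That size moved with the library set. For nduo-3 the atp-2 RNAi libraries of 24 hr, 36 hr and 54 hr held only 2.75, 4.09 and 8.54 TPM, and the 48 hr control 0.470 TPM. In the same gene the 0 hr controls held 322.1 to 336.7 TPM and the 20 hr controls 150.1 to 175.0 TPM. Accordingly 0 of the 12 genes passed the count of 7 libraries against 9 controls. The direction was the same within each table, though: all 12 rose at 0 hr and at 20 hr by limma, with median changes of 1.49 and 2.17, and the single pairs gave medians of 1.02 at 24 hr, 1.60 at 36 hr and 1.53 for 54 hr against 48 hr. As a share of all TPM the mitochondrial genome made up 3.90% to 4.52% in the 4 libraries, against 0.522% and 0.460% in the nearest controls.

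**Figure D2:**
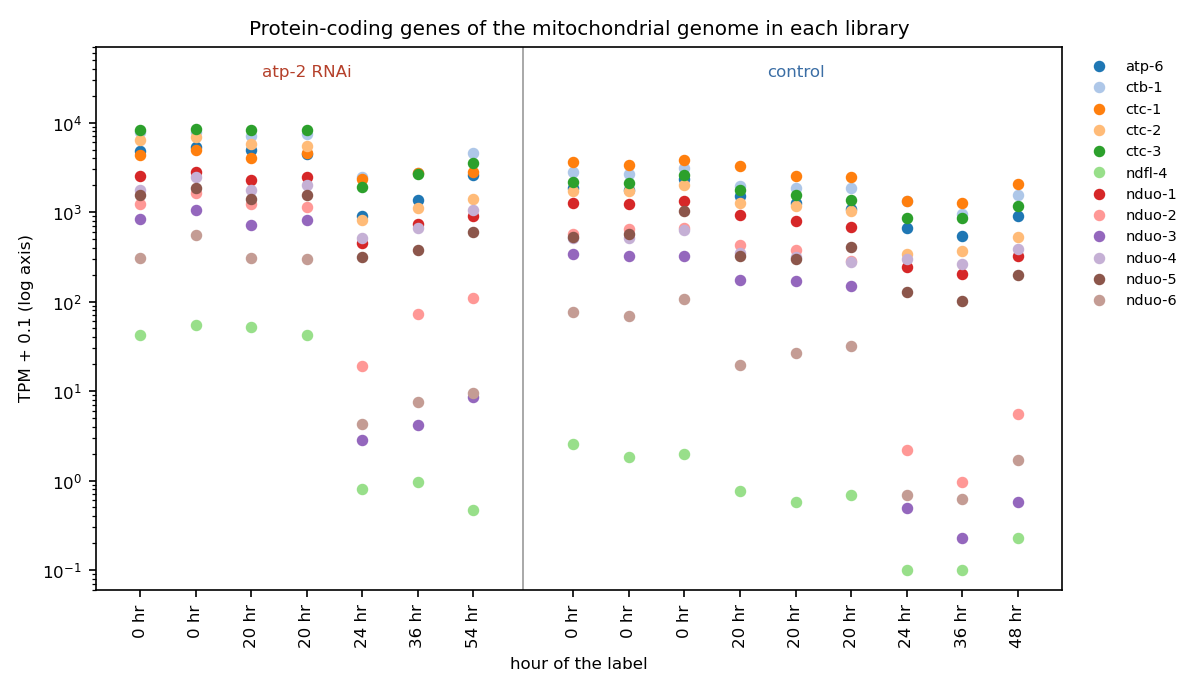
TPM + 0.1 (log axis) of the 12 protein-coding genes of the mitochondrial genome, 1 point per gene and library, with atp-2 RNAi on the left and controls on the right. On both sides nduo-2, nduo-3, nduo-6 and ndfl-4 are far lower in the libraries of 24 hr and later than in those of 0 hr and 20 hr, and at each shared hour the atp-2 RNAi points are the higher ones.

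Most listed markers of mitochondrial stress were higher than in both nearest controls, led by tbb-6 and cyp-14A4. Of 17 listed genes of the mitochondrial unfolded protein response, 12 were higher (70.6%, against 34.3% of all tested genes) and 2 lower (median 0.60). Above all 9 controls were 8, and 4 with all 7 atp-2 RNAi libraries. The median shift gave 8 higher and 2 lower, and quantile normalization 10 and 1. Against controls of the same hour 10 rose and 3 fell at 0 hr, and 6 rose and 4 fell at 20 hr (limma). The beta-tubulin gene tbb-6 (chromosome V, 12261804 to 12263368, plus strand), known in worms as a target of the PMK-3 kinase after mitochondrial damage, had 298.9, 574.0, 409.2 and 728.6 TPM in atp-2 RNAi, against 3.25 and 4.67 TPM in the controls. The groups do not overlap, and the difference was 6.60 (97.1-fold). All 7 atp-2 RNAi libraries lay above all 9 controls, the lowest being the 24 hr library with 18.1 TPM. The change within the same hour was 6.51 at 0 hr (adjusted p = 1.05e-06) and 7.35 at 20 hr (adjusted p = 4.55e-07, limma).

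The cytochrome P450 gene cyp-14A4 (chromosome X, 13282096 to 13284204, minus strand), a reporter of mitochondrial dysfunction in worms, had 90.7, 112.8, 163.8 and 119.8 TPM in atp-2 RNAi, against 0.391 and 1.33 TPM in the controls. The groups were 66.7-fold apart. Its mean over both controls was under 1 TPM, so cyp-14A4 passed the filter through the atp-2 RNAi libraries. The import channel gene timm-23 was at 401.9, 448.8, 571.9 and 477.5 TPM in atp-2 RNAi, against 181.2 and 168.6 TPM. Mitochondrial chaperones moved less and in opposite directions. The mitochondrial Hsp70 gene hsp-6 had 693.0, 778.3, 1085 and 872.0 TPM in atp-2 RNAi, against 678.9 and 561.0 TPM, a difference of 0.45, and did not lie outside the 9 controls. The chaperonin gene hsp-60 had 359.8, 386.8, 465.0 and 386.0 TPM in atp-2 RNAi, against 645.9 and 508.6 TPM in the controls. Also lower was dve-1, a homeodomain factor of this response, with a difference of -1.17, though it rose by 1.92 at 0 hr and by 2.3 at 20 hr against controls of the same hour (limma).

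Of 10 fission and mitophagy genes 8 were higher and 1 lower, and under both scalings 5 were higher and 1 lower. Against controls of the same hour, 4 rose and 6 fell at 0 hr and 4 rose and 5 fell at 20 hr (limma), so the balance differed with the control. The fission factor gene mff-2 had 114.9, 107.0, 274.3 and 149.4 TPM in atp-2 RNAi, against 10.7 and 14.02 TPM. The dynamin gene drp-1, which constricts mitochondria, differed by 1.38 without lying outside the 0 hr and 20 hr controls, and the mitophagy receptor gene dct-1 by 1.03. Among 26 autophagy genes 12 were higher and 2 lower, which became 8 and 6 after the median shift, and 13 rose and 5 fell at 0 hr while 7 rose and 13 fell at 20 hr. Furthest apart was the cargo receptor gene sqst-1, at 372.0, 361.9, 466.2 and 481.7 TPM in atp-2 RNAi, against 141.0 and 95.9 TPM.

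Detoxification enzymes were higher in large numbers. These enzymes oxidise foreign and endogenous compounds (cytochrome P450) or couple them to a sugar (UGT) or to glutathione (GST). Of 61 tested P450 genes 42 were higher and 2 lower, with a median of 1.25, and 34 lay above all 9 controls. Of 57 UGT genes 36 were higher and 4 lower (median 0.81), with 20 above all 9 controls, and of 37 GST genes 18 were higher and 4 lower (median 0.68), with 14 above all 9. Of all 7 atp-2 RNAi libraries against all 9 controls, 23 P450, 12 UGT and 7 GST genes still passed. After the median shift the P450 count was 40 higher and 5 lower, and after quantile normalization 34 and 5. The UGT count became 25 and 5 and then 21 and 6, and the GST count 16 and 8 and then 13 and 8. Of the P450 genes 20 averaged under 1 TPM over both controls and passed the filter through the atp-2 RNAi libraries, as did 5 UGT and 6 GST genes. Many of these enzymes are made in the intestine, whose 6 markers split into 3 higher and 3 lower and summed to 1939 to 2614 TPM in atp-2 RNAi, against 3298.5 and 3881 TPM in the controls, and the part of tissue makeup in these counts was not tested.

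Behind cyp-14A4 the largest P450 differences were those of cyp-13A8, cyp-13A7 and cyp-33C8, at 5.92, 4.11 and 4.10. In cyp-13A8 the libraries held 57.5, 113.9, 107.4 and 133.1 TPM under atp-2 RNAi, against 0.595 and 0.699 TPM. Among the UGT genes, ugt-19 (chromosome IV, 6076692 to 6079945, minus strand) had 320.4, 419.5, 566.5 and 519.5 TPM in atp-2 RNAi, against 16.3 and 22.7 TPM in the controls, or 22.1-fold. The most abundant member named was ugt-62, with 939.8 to 1662 TPM in the 4 atp-2 RNAi libraries, against 72.1 and 106.5 TPM. The GST genes furthest apart were gst-14, at 33.8 to 78.0 TPM in atp-2 RNAi against 4.85 and 1.198 TPM, and gst-15. The reporter gene gst-4, a target of the stress factor SKN-1 in worms, had 45.8, 70.4, 49.7 and 43.7 TPM in atp-2 RNAi, against 17.7 and 27.7 TPM, and overlapped the 0 hr controls.

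**Figure D3:**
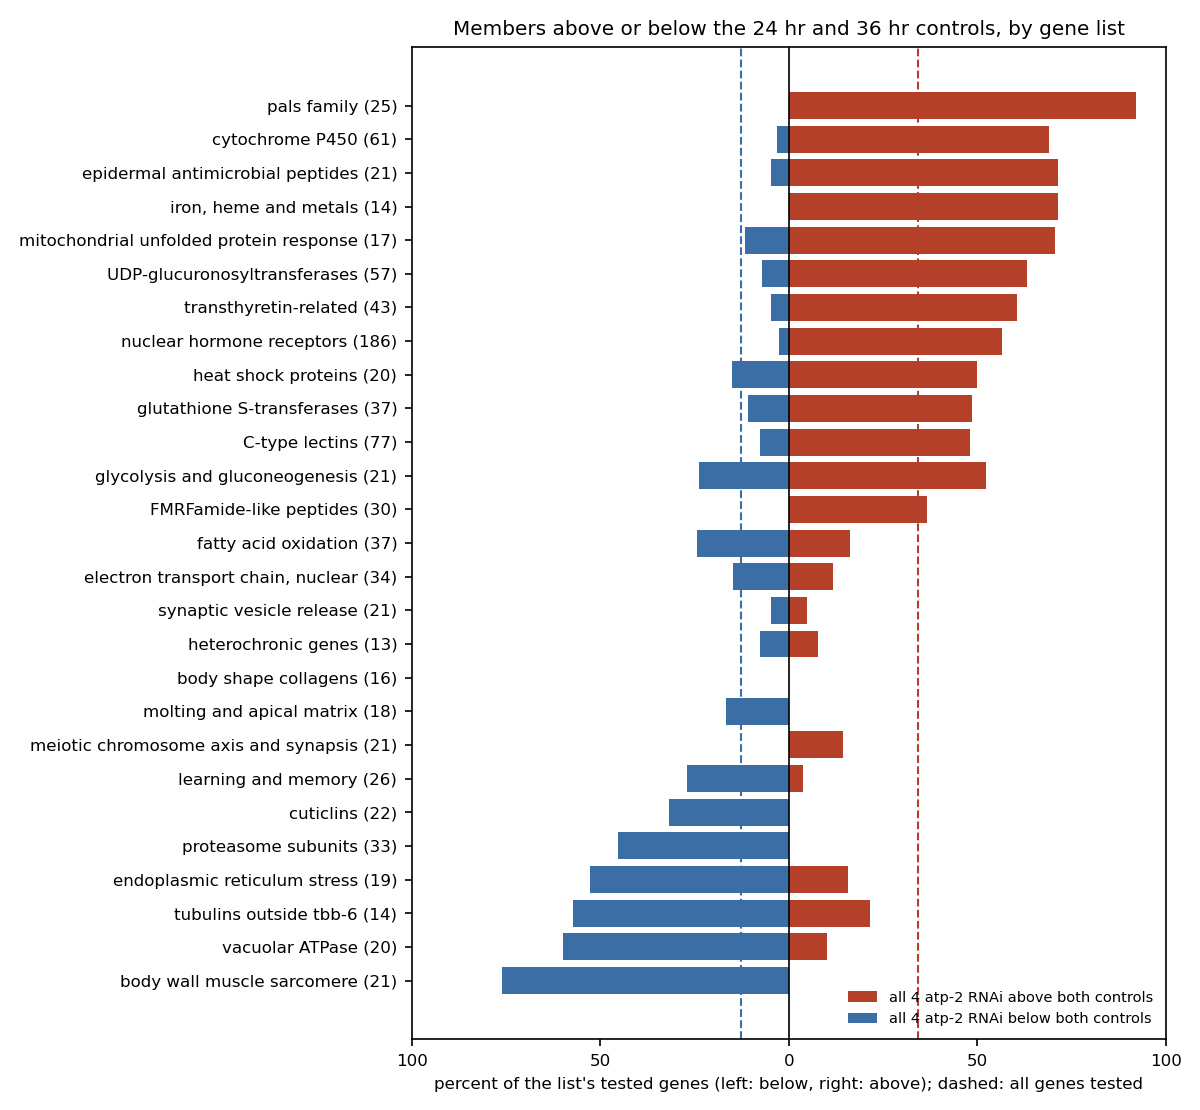
Percent of each list's tested genes (number in brackets) for which all 4 atp-2 RNAi libraries lay above both nearest controls (red, to the right) or below both (blue, to the left), with dashed lines at 34.3% and 12.6% for all tested genes. The pals family reaches 23 of 25 above, body wall muscle sarcomere genes 16 of 21 below, and body shape collagens 0 of 16 either way.

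Genes of iron, heme and metal handling were higher in 10 of 14 cases and lower in 0, with a median of 1.41. The metallothionein gene mtl-1 (chromosome V, 6691371 to 6691863, minus strand), whose product binds zinc and cadmium, had 53.4, 86.7, 49.2 and 78.2 TPM in atp-2 RNAi, against 3.85 and 1.54 TPM. The ferritin gene ftn-1, an iron store, had 319.5, 134.0, 221.0 and 127.4 TPM, against 8.95 and 18.6 TPM. Heme trafficking genes hrg-2 and hrg-3 differed by 3.74 and 2.31. For mtl-1, ftn-1 and hrg-2 all 7 atp-2 RNAi libraries lay above all 9 controls.

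Heat shock genes gave 10 higher and 3 lower of 20, but the controls themselves differed by a median of 1.43 (absolute log2) between 24 hr and 36 hr in this list. The small heat shock gene hsp-16.2 had 38.6, 30.6, 72.9 and 30.2 TPM in atp-2 RNAi, against 14.4 and 1.67 TPM, and the 36 hr atp-2 RNAi library had 5.17 TPM. Of 23 antioxidant genes 21 were tested, 7 of them higher (33.3%) and 5 lower (23.8%). Of all tested genes 34.3% were higher and 12.6% lower, so the share of higher antioxidant genes was that of all genes. After the median shift 6 antioxidant genes were higher and 7 lower. The mitochondrial superoxide dismutase gene sod-3, a target of DAF-16 in worms, had 10.5, 29.4, 11.8 and 17.4 TPM in atp-2 RNAi, against 1.56 and 0.967 TPM. Among hypoxia and hydrogen sulfide genes, 6 of 12 were higher and 2 lower, against 3 and 4 after the median shift, and the cysteine synthase-like gene cysl-2 was at 148.5 to 208.2 TPM in atp-2 RNAi, against 44.9 and 70.04 TPM.

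Defence genes were higher in several families. Of 38 pals genes, a family whose members include regulators of the worm response to intracellular infection, 25 were tested, and 23 of those were higher and 0 lower, with a median of 1.58 and 21 above all 9 controls. That count is partly set by the filter, since 12 of the 25 averaged under 1 TPM over both controls, and of the other 13 genes 12 were higher. In pals-6 the values were 33.5, 17.2, 25.7 and 24.8 TPM in atp-2 RNAi, against 1.38 and 0.759 TPM. Epidermal antimicrobial peptide genes (cnc and part of nlp) were higher in 15 of 21 cases and lower in 1, with cnc-1 at 26.1, 21.8, 18.4 and 5.50 TPM in atp-2 RNAi, against 0.144 TPM at 24 hr and 0 at 36 hr. Of these 21 genes 3, cnc-1 among them, averaged under 1 TPM over both controls and passed the filter through the atp-2 RNAi libraries. All 3 were counted as higher, and the other 18 gave 12 higher and 1 lower. Among C-type lectins 37 of 77 were higher and 6 lower. The filter added to that count, since 16 of the 77 averaged under 1 TPM over both controls, 12 of them counted as higher. The other 61 gave 25 higher and 6 lower. After the median shift the lectins gave 27 higher and 10 lower, and after quantile normalization 26 and 11. Their medians in the single pairs were 0.0045 at 24 hr, 0.16 at 36 hr and -0.046 for 54 hr against 48 hr. The lectin gene clec-17 had 46.3, 61.4, 74.0 and 62.6 TPM in atp-2 RNAi, against 2.32 and 1.501 TPM. Members of these families include close copies of each other, and how shared reads were divided is not given in the sources used here.

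Lysozyme genes went both ways. The invertebrate-type lysozyme gene ilys-5 (chromosome X, 6533493 to 6536840, minus strand) had 8.36, 32.6, 6.89 and 19.6 TPM in atp-2 RNAi, against 166.5 and 321.9 TPM. All 7 atp-2 RNAi libraries lay below all 9 controls for it. Its relative ilys-3 had 63.9, 11.8, 46.7 and 5.99 TPM in atp-2 RNAi and was at 0 in both nearest controls. In both genes the replicates of atp-2 RNAi differed several-fold from each other. Of the saposin-like genes, a list added after values were seen, spp-4 and spp-17 were below all 9 controls while spp-15 and spp-1 were above them.

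Nuclear hormone receptors, ligand-regulated transcription factors that number far more in worms than in mammals, were higher in 105 of 186 cases and lower in 5, with a median of 0.58. After the median shift the counts were 91 and 24, and after quantile normalization 79 and 25. The receptor gene nhr-61 had 147.2, 139.4, 148.2 and 128.9 TPM in atp-2 RNAi, against 23.7 and 13.2 TPM. F-box genes of the fbxa family, added after values were seen, were higher in 82 of 95 cases and lower in 1, and 27 of the 95 passed the filter through the atp-2 RNAi libraries alone. Transthyretin-related genes were higher in 26 of 43 and lower in 2.

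Among the genes furthest apart were several without an assigned role here. F22B3.7 (chromosome IV, 11417581 to 11421796, minus strand) had 80.3, 79.8, 175.8 and 109.8 TPM in atp-2 RNAi, against 0 at 24 hr and 0.0903 TPM at 36 hr, a difference of 6.67. B0205.14, Y68A4A.13, C54F6.18, T16G1.4 and T16G1.6 followed the same pattern, with differences of 6.09, 6.26, 5.79, 4.89 and 4.76. The noncoding RNA tts-1 (chromosome X, 1504131 to 1504841, minus strand), known from long-lived worm mutants, where it associates with ribosomes, had 2934, 2297, 3521 and 2204 TPM, against 126.1 and 139.1 TPM. Its 24 hr, 36 hr and 54 hr atp-2 RNAi libraries held 935.3, 641.0 and 2469 TPM, above all 9 controls too.

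Energy metabolism showed a mixed picture. Of 21 tested genes of glycolysis and gluconeogenesis 11 were higher and 5 lower, and 7 lay above all 9 controls, also for all 7 atp-2 RNAi libraries. The aldolase gene aldo-1 had 919.4, 940.2, 1252 and 874.0 TPM in atp-2 RNAi, against 462.2 and 535.4 TPM, and the lactate dehydrogenase gene ldh-1 had 163.9, 166.9, 341.8 and 184.7 TPM, against 116.2 and 115.5 TPM. The glyceraldehyde-3-phosphate dehydrogenase gene gpd-2 differed by 0.51. After the median shift 4 members of this list were higher and 5 lower, and after quantile normalization 10 were higher and 6 lower. Genes of the TCA cycle gave 4 higher and 7 lower of 23, with suca-1 and sucg-1, both of succinyl-CoA synthetase, at -1.04 and -0.94.

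Fatty acid desaturases split by enzyme. The stearoyl-CoA desaturase gene fat-7 (chromosome V, 7151353 to 7153146, minus strand) had 0.195, 0.283, 0 and 0.130 TPM in atp-2 RNAi, against 3.57 and 19.8 TPM in the 24 hr and 36 hr controls. Every atp-2 RNAi library in the series, with 0.524 TPM at most, was below every control, of which the lowest was the 24 hr library. Within the same hour it fell by 4.24 at 0 hr (limma adjusted p = 1.77e-06) and by 2.62 at 20 hr (adjusted p = 1.01e-05). The other desaturase genes named were higher than in the nearest controls: fat-2 had 815.8 to 1233 TPM in atp-2 RNAi, against 244.6 and 317.2 TPM, fat-3 had 171.0 to 382.9 TPM, against 62.6 and 59.2 TPM, and fat-5 differed by 2.33. With all 7 atp-2 RNAi libraries against all 9 controls, 0 of the 18 genes of fatty acid synthesis and desaturation were higher, and 1, fat-7, was lower. The median of these genes was -0.65 for 54 hr against 48 hr. In fatty acid oxidation 6 of 37 genes were higher and 9 lower. The peroxisomal acyl-CoA oxidase gene acox-1.2 had 43.2, 36.6, 22.2 and 14.7 TPM in atp-2 RNAi, against 196.8 and 193.5 TPM, and the acyl-CoA synthetase gene acs-2 was higher by 1.37. Among the lowest genes overall was also lips-6, a lipase-related gene, at 10.99, 6.81, 3.20 and 5.43 TPM in atp-2 RNAi, against 229.2 and 162.0 TPM, though the 48 hr control held 7.35 TPM and the 0 hr and 20 hr controls at most 0.127 TPM.

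Body wall muscle genes were lower than in both nearest controls. Of 21 sarcomere genes 16 were lower and 0 higher, with a median of -0.80, and the scalings left 17 and 16 lower. The muscle myosin gene unc-54 had 768.4, 903.3, 609.7 and 690.9 TPM in atp-2 RNAi, against 1761 and 1466 TPM, or 0.458 times the control level. The attachment gene deb-1 (vinculin) differed by -1.201, and the actin genes act-1 and act-3, near-identical copies whose reads may be shared, by -1.36 and -1.55. All 5 fixed muscle markers were lower, summing to 1328 to 1948 TPM in atp-2 RNAi, against 3419.9 and 2749 TPM in the 24 hr and 36 hr controls. Only 1 of the 21 genes lay below all 9 controls. The 24 hr, 36 hr and 54 hr atp-2 RNAi libraries held 2154, 1590 and 1163 TPM of unc-54, and the list's median was 0.29 and 0.08 in the 24 hr and 36 hr pairs and -0.20 for 54 hr against 48 hr. Against controls of their own hour, 11 of the 21 rose and 1 fell at 0 hr, and 20 rose and 1 fell at 20 hr.

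Proteasome subunits were lower by small amounts. Of 33 genes 15 were lower and 0 higher, all 15 also below all 9 controls, with a median of -0.25. After the median shift 27 were lower, and after quantile normalization 26. The lid subunit gene rpn-3 had 103.5, 95.8, 72.5 and 76.8 TPM in atp-2 RNAi, against 146.0 and 120.3 TPM. The core subunit gene pbs-2 and the ATPase gene rpt-3 differed by -0.60 and -0.59. Within the tables all 33 fell at 0 hr and all 33 at 20 hr, with medians of -0.98 and -1.81, and the single pairs gave medians of -0.0036 at 24 hr, -0.64 at 36 hr and -0.19 for 54 hr against 48 hr. With all 7 atp-2 RNAi libraries 2 of the 33 stayed below all 9 controls.

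Translation initiation factors, a list added after values were seen, gave 21 lower and 4 higher of 33, with 17 below all 9 controls. The eIF3 subunit gene eif-3.K had 70.7, 72.2, 64.6 and 57.96 TPM in atp-2 RNAi, against 139.1 and 130.8 TPM. The spliceosomal Sm and Lsm genes, also added, gave 9 lower and 0 higher of 14, and lsm-8 had 13.7, 12.13, 13.2 and 11.7 TPM, against 39.0 and 29.8 TPM. Among the largest gaps below all 9 controls were the nucleolar gene nol-56, the arginine methyltransferase gene prmt-5 and the prefoldin gene pfd-2, with differences of -1.32, -1.35 and -1.35. Cytosolic ribosomal proteins differed little, with 6 higher and 20 lower of 77 and a median of -0.07, and quantile normalization turned this to 22 higher and 14 lower with a median of 0.02. Mitochondrial ribosomal proteins gave 20 higher and 21 lower of 71, but 1 and 20 after the median shift and 5 and 16 after quantile normalization.

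Chaperones of the endoplasmic reticulum and the vacuolar proton pump were lower than in the nearest controls as well, but not in every other comparison. Of 19 genes of endoplasmic reticulum stress 10 were lower and 3 higher, with a median of -0.56. The single pairs gave medians of 0.23 at 24 hr, -0.35 at 36 hr and -0.20 for 54 hr against 48 hr. Against controls of the same hour 8 rose and 6 fell at 0 hr, and 8 rose and 9 fell at 20 hr (limma). With all 7 atp-2 RNAi libraries 0 of the 19 were below all 9 controls. The BiP genes hsp-4 and hsp-3 differed by -1.07 and -1.04, with hsp-3 at 750.4, 809.3, 572.7 and 705.6 TPM in atp-2 RNAi, against 1508 and 1390 TPM. Of 20 vacuolar ATPase genes 12 were lower and 2 higher, none below all 9 controls, with vha-12 and vha-13 (subunits B and A) at -0.85 and -0.84. The medians of this list were 0.099, 0.15 and -0.28 in the same single pairs. By limma 1 of the 20 rose and 6 fell at 0 hr, and 15 rose and 2 fell at 20 hr. Tubulins other than tbb-6 gave 8 lower and 3 higher of 14, and the touch neuron tubulins mec-7 and mec-12 were at -1.84 and -2.06.

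**Figure D4:**
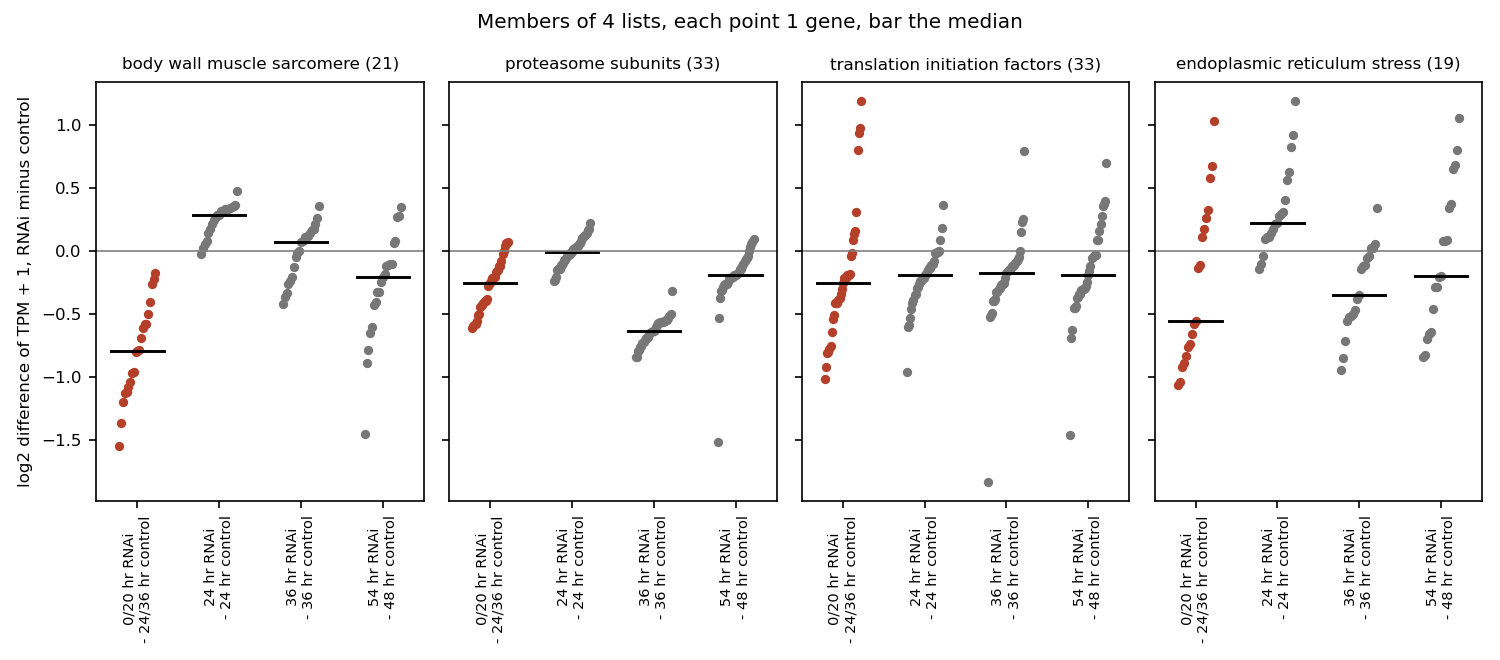
Log2 difference of TPM + 1, atp-2 RNAi minus control, for each member (1 point) of 4 lists, with a bar at the median. Red points set the 0 hr and 20 hr atp-2 RNAi libraries against the 24 hr and 36 hr controls, and grey points are the 3 single pairs. Sarcomere genes have medians of -0.80 in the red column and 0.29, 0.08 and -0.20 in the grey ones, and proteasome genes -0.25 in the red and -0.0036, -0.64 and -0.19 in the grey.

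Cuticle and molting lists had small median differences from the nearest controls, which the choice of controls by closest profile favours, so this closeness is a description and no finding. By limma at 0 hr, 6165 genes (43.7% of those tested) rose and 5576 (39.6%) fell, and at 20 hr 6158 (47.7%) rose and 5253 (40.7%) fell. These fits share the atp-2 RNAi libraries with the nearest-control comparison, so their values are given side by side. Of 16 body shape collagens (dpy, rol, sqt and the like) 0 were higher and 0 lower than the nearest controls, with a median of -0.06, while in the fits of the same hour 15 rose at 0 hr and 15 at 20 hr, with medians of 7.57 and 6.87. Molting and apical matrix genes gave 0 higher and 3 lower of 18, while 17 rose at 0 hr and 17 at 20 hr. Heterochronic genes, which time larval fates, gave 1 higher and 1 lower of 13, and their median of 0.0053, or -0.25 after the median shift, stands beside 2.19 at 0 hr and 1.63 at 20 hr.

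Medians of germline lists lay further off before rescaling, under the same choice of controls, and this depended on the scale. Meiotic axis and synapsis genes gave 3 higher (14.3%, against 34.3% of all tested genes) and 0 lower of 21 against the nearest controls. Their median was 0.66 (0.41 after the median shift and 0.19 after quantile normalization), with the smallest difference at 0.28. All 21 fell at 0 hr and at 20 hr, with medians of -4.19 and -3.82. Germ granule genes and oocyte RNA-binding regulators had medians of 0.38 and 0.36, which became -0.05 and -0.12 after quantile normalization. Eggshell genes gave 4 higher and 0 lower of 9 tested, with a median of 0.53 (0.09 after quantile normalization). Of the 9, 3 averaged under 1 TPM over both controls and passed the filter through the atp-2 RNAi libraries. All 3 were counted as higher, against 1 of the other 6. After the median shift 1 was higher and 1 lower. Within the tables, where 17 were tested, the medians were -6.81 at 0 hr and -7.01 at 20 hr. The RNA-binding regulator gene gld-1 of the germline had 6.90, 6.14, 11.21 and 28.3 TPM in atp-2 RNAi, against 2.74 and 11.5 TPM in the nearest controls, so the groups overlap, and 354.6 to 1075 TPM in the 0 hr and 20 hr controls. In these lists the nearest controls were far from each other too, by a median absolute log2 difference of 0.52 for body shape collagens, 0.77 for molting genes and 1.21 for meiotic genes, against 0.35 for all tested genes. A gene that differs between both controls has a wider band to clear before it is counted.

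A few transcripts of adult worms were counted as higher at low levels. The adult collagen gene col-19 had 2.04, 1.05, 4.94 and 17.3 TPM in atp-2 RNAi, against 0 and 0.784 TPM in the nearest controls, and 265.4 to 2891 TPM in the 0 hr and 20 hr controls. Of 4 adult collagens 3 were counted as higher. But 3 of the 4, col-19 among them, averaged under 1 TPM over both controls and passed the filter through the atp-2 RNAi libraries. Of those 3, 2 were counted as higher, so this count rests in part on the filter. After the median shift 1 of the 4 was higher, and after quantile normalization also 1. The collagen genes col-101, col-122 and col-181 differed by 4.79, 4.63 and 4.29, and in each the 20 hr atp-2 RNAi libraries were above those of 0 hr. The yolk gene vit-2 was at 0.192 and 0.477 TPM in the 0 hr and 9.03 and 5.93 TPM in the 20 hr atp-2 RNAi libraries, against 0.0107 and 0.0974 TPM. Of the 6 vitellogenins only vit-2 and vit-6 passed the filter on low values, and both did so through the 20 hr atp-2 RNAi libraries, so their being counted as higher rests on the filter. The other yolk genes stayed under 1 TPM in all 6 libraries, and in vit-1, vit-3 and vit-4 the 4 atp-2 RNAi libraries lay below both controls. Lower among cuticle genes were 7 of 22 cuticlins, with 0 higher, and cut-2 had 635.2, 273.9, 231.8 and 486.4 TPM in atp-2 RNAi, against 3413 and 1669 TPM.

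**Figure D5:**
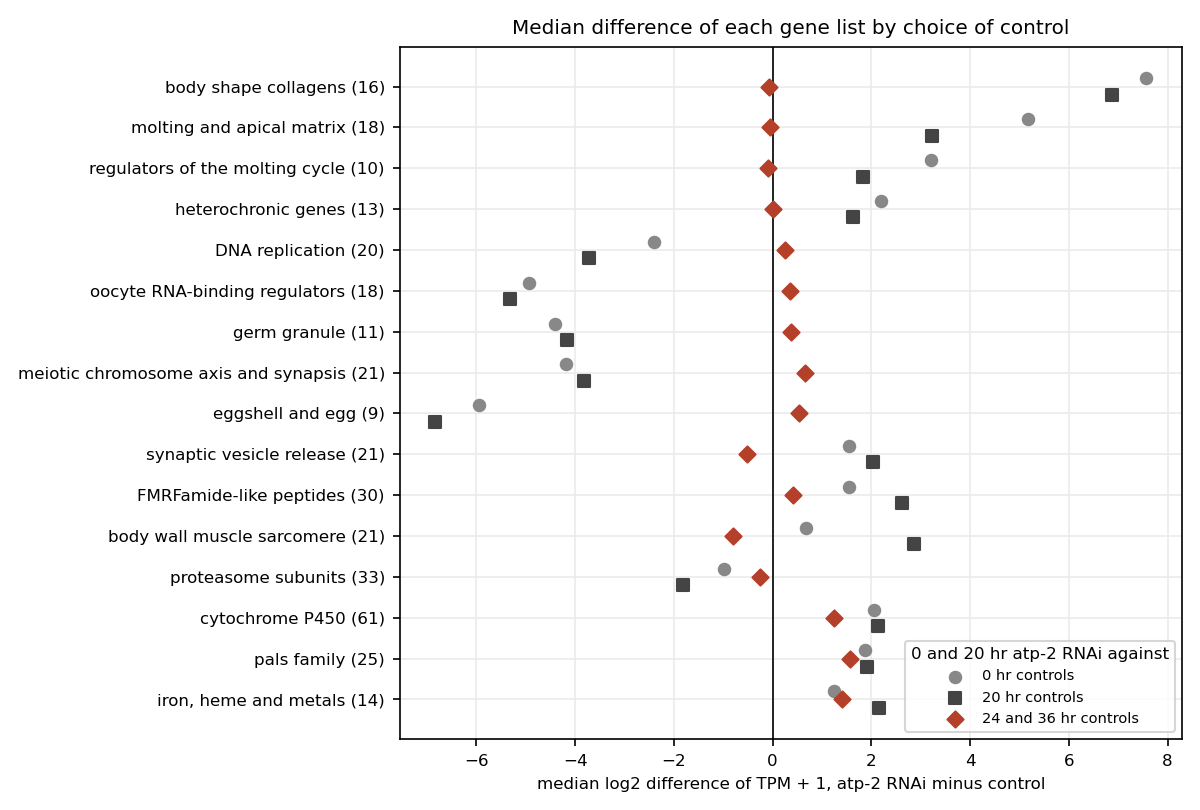
Median log2 difference of TPM + 1, atp-2 RNAi minus control, of 16 gene lists (number of genes in brackets) against the 0 hr controls (circles), the 20 hr controls (squares) and the 24 hr and 36 hr controls (red diamonds). Molting, collagen and germline lists lie up to 7.57 from 0 against the controls of the same hour and within 0.66 of 0 against the nearest controls, while P450 and pals genes lie above 1 against all 3.

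Other lists of secreted and structural proteins gave mixed counts. Astacin metalloproteases, several of which act on the cuticle, were lower in 10 and higher in 4 of 23 cases, with a median of -0.87. Hedgehog-related and patched-related genes, which in worms serve the cuticle and trafficking, were lower in 14 and higher in 5 of 61. Glutamine-rich abu and pqn genes gave 15 lower and 8 higher of 53. Of all tested genes 34.3% were higher and 12.6% lower. The large col family of collagens gave 36 higher (30.25%) and 33 lower (27.73%) of 119. Of these, 24 averaged under 1 TPM over both controls and passed the filter through the atp-2 RNAi libraries, 18 of them counted as higher. The other 95 gave 18 higher and 33 lower. After the median shift the whole family gave 24 higher and 41 lower, and after quantile normalization 18 and 36. Among regulators of growth, AMPK and TOR genes gave 6 higher (40%) and 2 lower (13.3%) of 15, near the shares of all tested genes. After the median shift AMPK and TOR genes gave 3 higher and 4 lower. Genes of the insulin receptor pathway gave 4 higher (40%) and 1 lower (10%) of 10, also near those shares. After the median shift they gave 4 and 3, with a median of 0.23 that became -0.02.

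Of 30 FMRFamide-like peptide genes 11 were higher and 0 lower, near the share of all genes, and 7 and 4 after the median shift, and 10 lay above all 9 controls. In flp-18 the values were 47.1, 49.3, 34.1 and 40.9 TPM in atp-2 RNAi, against 18.9 and 9.98 TPM. Other neuropeptide-like genes gave 15 higher (30.6%, near the 34.3% of all tested genes) and 3 lower of 49. After the median shift they gave 9 and 8. Insulin-like peptides gave 5 higher and 0 lower of 10, and 4 and 3 after the median shift. Of these 10, 3 averaged under 1 TPM over both controls and passed the filter through the atp-2 RNAi libraries. All 3 were counted as higher, against 2 of the other 7. Synaptic vesicle release genes gave 1 higher and 1 lower of 21, with a median of -0.52. These were snb-1 (synaptobrevin), at 310.6, 329.6, 264.7 and 293.1 TPM in atp-2 RNAi, higher by 0.65, and snn-1 (synapsin), lower by 1.15. After the median shift 17 of the 21 were lower and 1 higher, and after quantile normalization 15 and 1, so the counts of both peptide and synaptic lists rest on the scale.

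Learning and memory genes gave 1 higher and 7 lower of 26, with a median of -0.30, and 2 higher and 17 lower after the median shift. The higher one was crtc-1, a coactivator of CREB, with 99.0, 80.9, 72.4 and 69.5 TPM in atp-2 RNAi, against 45.4 and 40.6 TPM, and all 7 atp-2 RNAi libraries were above all 9 controls. Lower were unc-7 (an innexin of gap junctions), gsa-1 (G protein alpha s) and egl-30 (G protein alpha q), at -1.03, -0.79 and -0.68. The calmodulin kinase gene cmk-1 had 22.99, 25.3, 16.54 and 20.4 TPM in atp-2 RNAi, against 46.1 and 16.6 TPM in the controls, which lie on either side. The median absolute difference between both controls was 0.63 in this list and 1.15 in the synaptic one.

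A pair of libraries outside the comparison, atp-2 RNAi of 54 hr and control of 48 hr, gave a separate view. In it 2446 of the 13162 genes (18.6%) were at least 2-fold higher and 1149 (8.73%) at least 2-fold lower, with no test, since each group is 1 library. Of the 4513 genes higher than the nearest controls 1389 (30.8%) were at least 2-fold higher in the pair, which is 56.8% of the genes so found there, and 135 (2.99%) were at least 2-fold lower. Of the 1662 lower genes 333 (20.04%) were at least 2-fold lower in the pair, 28.98% of the genes so found, and 36 (2.17%) were at least 2-fold higher. The median log2 difference of the pair was 0.58 for the higher genes, -0.31 for the lower genes and 0.25 for all tested genes.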

How the data were processed

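GENEzol served for RNA extraction and an Agilent SureSelect kit that keeps strand for the libraries, per the labels' protocols. Per the submitters' processing notes, bcl2fastq 2.20, TopHat, Cufflinks and the genome build WBcel235 were used. For TopHat and Cufflinks the version, and also the annotation, the program behind the TPM and the strand setting, were not given in the sources used here. As deposited, the authors' tables hold TPM for 46904 genes, and 0.0001, which stands for no signal, was set to 0. Coordinates are those of the deposited tables. The authors' deposited lists of changed genes were not used, and 0 columns of single samples were left out.

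Libraries were joined by gene identifier. Differences are means of log2(TPM + 1), atp-2 RNAi minus control. Within the 0 hr and 20 hr tables, limma 3.58.1 in R 4.3.3 was used with an intensity trend, genes of at least 1 TPM on average and Benjamini-Hochberg adjustment at 0.05, after a check on simulated data. The p-values reflect the spread among these libraries alone, and that spread may be technical. The members, the 67 gene lists and the tests were chosen with earlier results of these data known, and 5 more lists after values were seen. No list was tested as a set. Named genes are the target, the 10 largest differences and the 10 largest gaps outside all controls per direction, up to 4 members per list with the largest differences, and a fixed set by name. Alternatives were other filters, pseudocounts of 0.1 and 0.01, common-median and quantile scaling, single controls, single hours, a replicate block and leaving out each library. Python 3.11.15, numpy 2.4.6 and pandas 2.3.3 were used for counts.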

Additional observations from a re-analysis of the deposited data

Results flagged for a closer look

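The 0 hr and 20 hr atp-2 RNAi libraries lay on opposite sides of both nearest controls for some genes. For 170 genes both 0 hr libraries were above and both 20 hr libraries below, and for 23 genes it was the other way round. The difference between the hours was not tested. Both genes named here were chosen after their values were seen. The collagen gene col-160 had 637.2 and 758.8 TPM at 0 hr and 4697 and 3270 TPM at 20 hr under atp-2 RNAi, against 1588 and 1705 TPM in the 24 hr and 36 hr controls. The FKBP-type isomerase gene fkb-5 had 167.4 and 137.4 TPM at 0 hr and 26.2 and 52.8 TPM at 20 hr under atp-2 RNAi, against 87.4 and 71.5 TPM.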

How the results depend on the processing

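Against the nearest controls the common median gave 3666 lower genes in place of 1662, and quantile normalization 2954 higher and 3614 lower. Against all 9 controls the common median gave 1417 higher and 1245 lower, and quantile normalization 1331 and 1267, in place of 2126 and 443. A gap of at least 2-fold left 856 higher and 101 lower against the nearest and 447 and 9 against all controls. The 20 hr atp-2 RNAi libraries alone gave 3036 lower against the nearest and 853 lower against all controls, and the 24 hr control alone 4117 lower. Leaving out 1 atp-2 RNAi library in turn gave 4660 to 5514 higher and 1762 to 2124 lower against the nearest controls. Leaving out any 1 library gave 2131 to 2972 higher and 443 to 739 lower against all 9, the most lower genes without the 36 hr control. For 7 atp-2 RNAi libraries, leaving out that of 24 hr gave 1361 higher and 280 lower. Leaving out the mitochondrial genome, an alternative added after the values were seen, gave 4789 and 1427 against the nearest controls. Pseudocounts of 0.1 and 0.01 kept the counts of 2-fold differences within 1.5 times.

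Within the 20 hr table no filter gave 9342 higher genes and a mean of at least 5 TPM 3925, since other numbers of genes were tested. Leaving out 1 library gave 5299 to 6426 higher and 5098 to 5513 lower at 0 hr, and 5391 to 6280 and 4991 to 5270 at 20 hr. The replicate block gave 6019 higher and 5523 lower at 0 hr and 6109 and 5157 at 20 hr. Deviations of same-numbered libraries correlated between -0.072 and 0.028. These values cannot show whether such libraries were grown or prepared together, which no label gives. Among the differences of named genes, 2963 of the values under alternatives moved by less than the spread between the 4 libraries, 611 by more, and 2 changed sign, chs-1 (-0.07) and lgc-50 (-0.05), both under quantile normalization. TPM keep no depth, so no counting limit can be given for low genes.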
